A study of Sus scrofa with 12 samples.

Results

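Endometrial levels of 10 genes of the blood vessel wall were followed in sows fed diets that differed in fiber and in N-carbamylglutamate (NCG), a feed additive related to arginine synthesis. The set held 5 genes of endothelial surface or granule proteins (VWF, PECAM1, EMCN, ESAM and ROBO4), both Tie receptors (TEK and TIE1) and the angiopoietins ANGPT1, ANGPT2 and ANGPT4. Members were taken by an exact match of the gene symbol. All 10 were found among the 20674 genes of the expression table, and all 10 were among the 15351 genes that passed the filter on low counts and were tested. The matching itself used no measured value, but the list was drawn up with earlier results of these data known.

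The tissue was endometrium, the inner lining of the uterus, from Landrace × Yorkshire sows that had farrowed before, collected after a feeding trial that ran from breeding over 114 days. The control group L − N received a low-fiber (LF) diet with 3.73% crude fiber and no NCG. The L + N group received the same LF diet with 0.05% NCG. The H − N group received a high-fiber (HF) diet with 7.46% crude fiber and no NCG, and the H + N group received the HF diet with 0.05% NCG. Each group had 3 poly(A) RNA-seq libraries, 12 in all. Nothing in the labels ties a library to a named sow, so the p-values below measure the spread between these libraries.

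Endothelial cells line all blood vessels, and the angiopoietin and Tie system controls how stable that lining is. ANGPT1, made mostly by the cells around the vessel, activates the receptor TEK (also called TIE2) and keeps the endothelium quiescent. ANGPT2 is stored in and released from the endothelial cells themselves and usually opposes ANGPT1 at the same receptor, which allows vessels to sprout or regress. In the uterus this system takes part in the vessel growth and regression of the reproductive cycle and of pregnancy.

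Of these genes, 1 passed the test over the 4 groups, adjusted across all genes, where 6.96% of all tested genes passed. It was PECAM1, an adhesion molecule of the junctions between endothelial cells that is also carried by platelets and leukocytes. PECAM1 was lower with NCG over both diets pooled. Its mean level was 402 ± 60.9 CPM (read counts scaled to library size; SD, n = 3) in L − N and 189 ± 21.8 CPM (SD, n = 3) in L + N, a log2 fold change of −1.09. On the HF diet the difference with NCG was −0.39 (adjusted p = 0.597, edgeR). The result over the 4 groups was lost in 5 of 12 fits that left out 1 library. TEK, the angiopoietin receptor, was the steadiest member, with 1.41-fold between its highest and its lowest library. ANGPT4 and ANGPT1 were the most variable, at 11.9-fold and 5.68-fold.

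Between 14369781 and 19309724 reads were counted in each library. The member with the fewest reads was ANGPT1, at 20 to 113 counts, and all other members had at least 68 counts in every library. No pair of replicates agreed within sampling noise, so each library was counted once. All 34 genes of an endothelial list that holds no member passed the filter, and their summed level was 2016 to 2863 CPM over the libraries. Endothelial genes were thus read in each library, but which cells the reads of the members came from was not tested. Because whole tissue was sequenced, fewer endothelial cells and less RNA per endothelial cell cannot be told apart in any result below.

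Levels are comparable between genes only per gene length, and for this the deposited FPKM (fragments scaled to gene length and library size) were used. PECAM1 had the highest mean level, 79.3 FPKM, followed by VWF at 40.1 FPKM, EMCN at 29.4 FPKM, ESAM at 20.6 FPKM and TEK at 17.3 FPKM. ROBO4 had 8.46 FPKM, TIE1 4.47 FPKM, ANGPT4 3.82 FPKM, ANGPT2 3.66 FPKM and ANGPT1 0.704 FPKM. PECAM1 was above VWF in 12 of 12 libraries, TEK above ROBO4 in 12, ROBO4 above TIE1 in 12 and ANGPT2 above ANGPT1 in 12. The neighbours that changed places most often were TIE1 and ANGPT4, in the listed order in 8 of 12 libraries, and ANGPT4 and ANGPT2, in 7 of 12. For those neighbours the libraries gave no stable order. The plot of levels per gene length shows the ladder from adhesion molecules down to ligands.

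**Figure D1:**
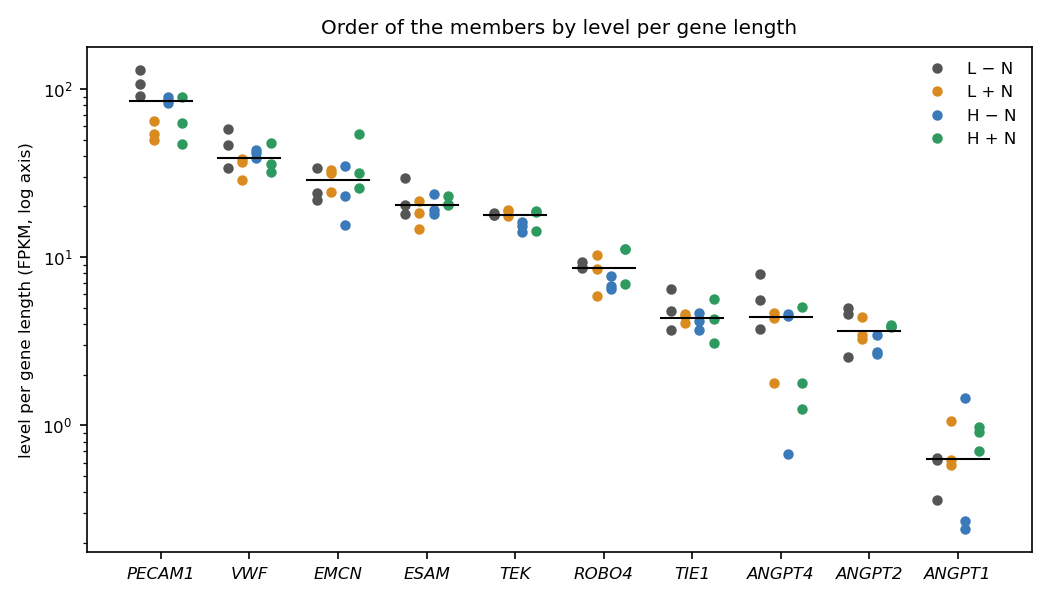
Levels of the 10 genes per gene length (FPKM, log axis) in the 12 libraries, coloured by group, with the median of each gene as a line. PECAM1 had the highest mean (79.3 FPKM) and ANGPT1 the lowest (0.704 FPKM), and the points of ANGPT4 and ANGPT1 spread over the widest ranges.

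Over the 4 groups, 1 of the 10 members (PECAM1) passed an adjusted p of 0.05 (edgeR, quasi-likelihood F test, Benjamini-Hochberg), where 6.96% of all tested genes passed. In comparisons of 2 conditions a gene was called when its adjusted p was below 0.05 and its log2 fold change was beyond 1 in either direction. With NCG against no NCG, 0 of 10 members were called (1.8% of all genes), and 1 passed the adjusted p alone (7.27% of all genes). With L + N against L − N, 1 member was called (3.99% of all genes) and the same 1 passed the adjusted p alone (9.6%). With H + N against L − N, 0 members were called (3.58%) and 1 passed the adjusted p alone (7.97%). With H − N against L − N, 0 members were called (2.91%) and 0 passed the adjusted p alone (5.27%), while 2 (TEK and ANGPT2) had an unadjusted p below 0.05. The comparisons against L − N share the control libraries and are not independent of each other.

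HF against LF called 0 members, with 0.0261% of all genes called and 0.0521% past the adjusted p alone, and no member had an unadjusted p below 0.05 there. The comparison of both HF groups, that of both NCG groups and that of H − N with L + N each called 0 members, where 0% of all genes were called. At an unadjusted p below 0.05 these comparisons held 0, 0 and 1 members, and 1331, 719 and 2737 of all genes. The test of the fiber by NCG interaction, that is whether NCG acted differently on the HF and LF diets, called 0 members and 0% of all genes. At an unadjusted p below 0.05 it held 2 members (PECAM1 and ROBO4) and 1967 of all genes.

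**Figure D2:**
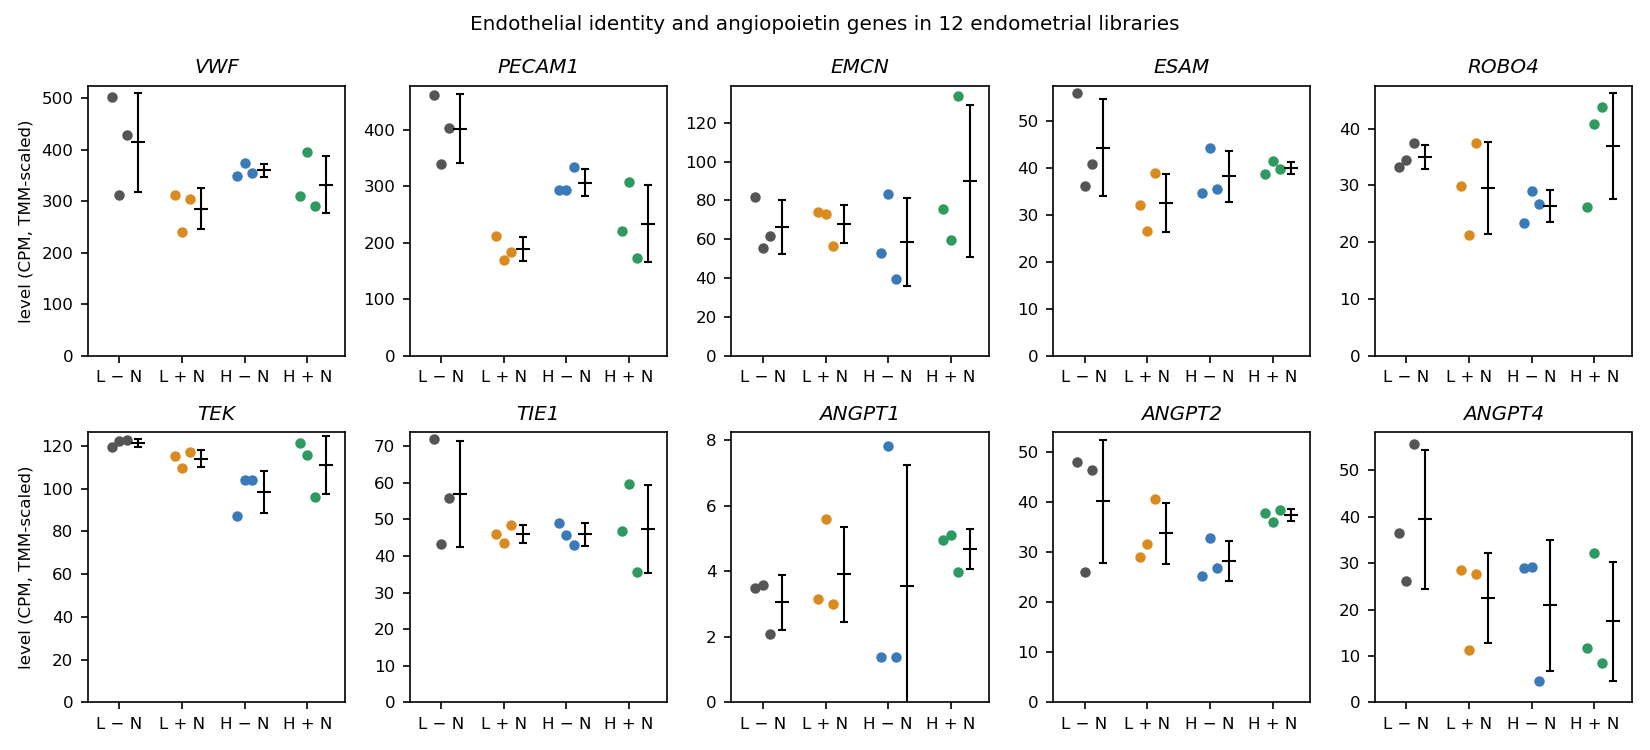
Level of each gene (CPM, TMM-scaled, axes from 0) in the 3 libraries of each group, with the group mean ± SD beside the points. The L − N points of PECAM1 lie above those of every other group, while the groups of VWF, TIE1, EMCN, ESAM, ANGPT2 and ANGPT4 overlap with L − N. The lower end of the ANGPT1 bar in H − N lies below 0 and is not drawn.

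PECAM1 (gene 396941) lies on chromosome 12, 14667643 to 14723296, of Sscrofa11.1, and the RefSeq annotation places a long non-coding RNA gene over it that the expression table does not list. Its levels were 462, 340 and 403 CPM in L − N, 213, 170 and 184 CPM in L + N, 293, 293 and 334 CPM in H − N, and 222, 307 and 174 CPM in H + N. Every library of the other 3 groups was below every L − N library. Lower values without overlap with L − N were found for 17.2% of all genes in L + N, for 12.7% in H − N and for 12.7% in H + N.

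PECAM1 was lower with NCG by a log2 fold change of −0.74 (SE 0.138, 95% interval −1.04 to −0.44, adjusted p = 0.0118, edgeR), the 280th smallest p of 15351 genes. On the LF diet the difference was −1.09 (SE 0.196, adjusted p = 0.0110, edgeR), and on the HF diet it was −0.39 (SE 0.194, 95% interval −0.82 to 0.04, adjusted p = 0.597, edgeR). The difference between these effects was 0.70 (SE 0.275, unadjusted p 0.0271, adjusted p = 0.335, edgeR), so an unequal action of NCG on the diets was not shown. Without H + N replicate 2 the difference on the HF diet was −0.63 and the interaction 0.45, and without H + N replicate 3 they were −0.22 and 0.87. H + N was lower than L − N by −0.78 (SE 0.195, adjusted p = 0.0374, edgeR), and H − N differed from L − N by −0.39 (SE 0.194, adjusted p = 0.246, edgeR). The call in L + N ended without L − N replicate 1, where the log2 fold change was −0.97, and without L + N replicate 2, where the adjusted p was 0.0556. Over the 4 groups its adjusted p rose to between 0.0548 and 0.114 without L − N replicate 3, any 1 library of L + N or H + N replicate 1. In H + N against L − N it rose above 0.05, to at most 0.115, without any 1 library of L − N, L + N replicate 2 or 3, H − N replicate 2, or H + N replicate 1 or 3, and the gene was called without H + N replicate 2 (−1.03). The lower level with NCG kept an adjusted p below 0.05 without any single library, between 0.00936 and 0.0416, with log2 fold changes from −0.86 to −0.65.

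PECAM1 is also a gene of platelets and macrophages, so marker lists of those cells were set beside it. All 8 macrophage genes were detected. Their summed level was 1358, 3419 and 3537 CPM in L − N replicates 1, 2 and 3, 1150 to 1629 CPM in L + N, 699 to 1013 CPM in H − N and 1103 to 1389 CPM in H + N. The median was highest in L − N, at 3419 CPM against 946 to 1551 CPM in the other groups, as PECAM1 was. Within L − N, replicate 1 had the lowest macrophage sum and the highest PECAM1. H − N had the lowest median of the macrophage sum, and the next highest mean of PECAM1 after L − N. In H + N against L − N, 3 of the 8 macrophage genes were called (3.58% of all genes). They were CD163, a scavenger receptor (−1.71), CSF1R, the receptor of a macrophage growth factor (−1.35), and C1QC, a complement subunit (−1.06). In L + N against L − N all 8 were lower (median log2 fold change −0.87), and 1 was called (3.99% of all genes). In H − N against L − N all 8 were lower (median −1.60), and 6 were called (2.91% of all genes). With NCG against no NCG, 0 of the 8 passed the adjusted p (7.27% of all genes).

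Of the platelet genes, 4 passed the filter, and their summed level was 9.90 to 15.3 CPM over the 12 libraries. PPBP, an abundant platelet chemokine, had at most 10 counts and was at 0 in 6 of 12 libraries. Erythroid genes, a sign of blood in the tissue, summed to 753, 62.6 and 514 CPM in L − N, 26.5 to 81.9 CPM in L + N, 31.8 to 55.3 CPM in H − N and 28.2 to 293 CPM in H + N. Smooth muscle genes summed to 5604 CPM in L − N replicate 1 and to between 939 and 2206 CPM in the other libraries. The part of macrophages, blood and muscle in the PECAM1 result was not tested beyond these values.

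**Figure D3:**
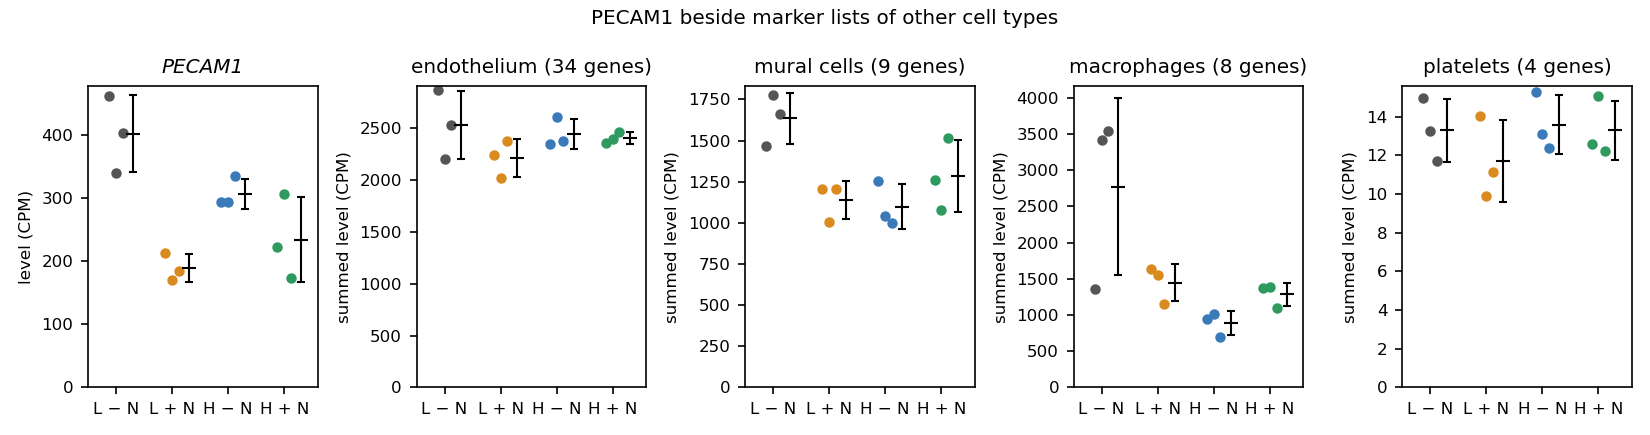
PECAM1 (CPM) beside the summed level (CPM) of an endothelial list without the members and of lists for mural cells, macrophages and platelets, by group, as single libraries with the mean ± SD. Macrophage genes are low in L − N replicate 1 (1358 CPM), where PECAM1 is highest (462 CPM), and platelet genes stay between 9.90 and 15.3 CPM.

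VWF (gene 399543; chromosome 5, 64516627 to 64655938) encodes von Willebrand factor, which captures platelets and fills the storage granules of endothelial cells. Its levels were 502, 312 and 430 CPM in L − N, 312, 240 and 305 CPM in L + N, 349, 375 and 356 CPM in H − N, and 310, 396 and 292 CPM in H + N. The highest and the lowest library stood in L − N and L + N, but the groups overlapped. With NCG against no NCG the log2 fold change was −0.33 (SE 0.130, unadjusted p 0.0284, adjusted p = 0.156, edgeR), and with L + N against L − N it was −0.54 (SE 0.184, adjusted p = 0.0877, edgeR). Without L − N replicate 2 the latter was −0.71 with an adjusted p of 0.0398 (edgeR).

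EMCN (gene 100628129; chromosome 8, 120174091 to 120227971) encodes endomucin, a sialomucin of venous and capillary endothelium. Its levels were 81.9, 55.6 and 61.5 CPM in L − N, 74.0, 73.0 and 56.4 CPM in L + N, 53.0, 83.5 and 39.5 CPM in H − N, and 75.7, 59.9 and 134 CPM in H + N. H + N replicate 3 was far above the other libraries, and all groups overlapped. H + N differed from the control by 0.44 (log2, SE 0.318, 95% interval −0.26 to 1.14), and by 0.03 without that library.

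ESAM (gene 100522817; 51983019 to 51992415) and ROBO4 (gene 100524821; 52083757 to 52097784) are near each other on chromosome 9 and are transcribed from the same strand. ESAM, an adhesion molecule of endothelial tight junctions, had 56.0, 36.2 and 40.9 CPM in L − N, 32.1, 26.6 and 38.9 CPM in L + N, 34.7, 44.4 and 35.7 CPM in H − N, and 38.8, 41.5 and 39.9 CPM in H + N. Its difference between L + N and L − N was −0.45 (log2, SE 0.184, unadjusted p 0.0330, adjusted p = 0.142, edgeR), and −0.24 without L − N replicate 1. The groups overlapped.

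ROBO4, a roundabout receptor of endothelium that limits vessel leakage, had 33.3, 34.5 and 37.4 CPM in L − N, 30.0, 21.3 and 37.4 CPM in L + N, 23.5, 29.1 and 26.7 CPM in H − N, and 26.2, 40.7 and 43.7 CPM in H + N. All H − N libraries were below all L − N libraries, as was found for 12.7% of all genes. ROBO4 gave a log2 fold change of −0.41 there (SE 0.222, adjusted p = 0.280, edgeR). Its interaction estimate was the highest among the members, 0.73 (SE 0.313, unadjusted p 0.0387, adjusted p = 0.364, edgeR).

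Both Tie receptors were expressed in every library. TEK (gene 396729; chromosome 1, 195938177 to 196052294) had 119, 122 and 123 CPM in L − N, 115, 109 and 117 CPM in L + N, 87.2, 104 and 104 CPM in H − N, and 121, 116 and 96.0 CPM in H + N. L + N and H − N lay below L − N without overlap on this scale, as did 17.2% and 12.7% of all genes. On the FPKM scale the L + N libraries overlapped with the control, at 17.5 to 19.1 FPKM against 17.9 to 18.4 FPKM, and their mean was the higher one, while H − N stayed below at 14.1 to 16.2 FPKM. From L − N to H − N the log2 fold change was −0.31 (SE 0.112, unadjusted p 0.0195, adjusted p = 0.128, edgeR). With NCG against no NCG, pooled over the diets, it was 0.04, with a 95% interval of −0.13 to 0.21. On the LF diet NCG gave −0.09 (95% interval −0.34 to 0.15) and on the HF diet 0.17 (−0.07 to 0.42). The pooled interval therefore does not bound the effect on a single diet. A gene on the other strand, LOC102166359, overlaps TEK and had at most 1.77 CPM.

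TIE1 (gene 494022; chromosome 6, 167919662 to 167947253), the partner receptor that tunes signaling through TEK, had 71.9, 43.1 and 55.9 CPM in L − N, 45.9, 43.4 and 48.4 CPM in L + N, 49.1, 45.6 and 43.0 CPM in H − N, and 46.9, 59.8 and 35.6 CPM in H + N. The groups overlapped, and the differences from L − N lay between −0.31 and −0.26 (log2, adjusted p 0.344 to 0.428, edgeR). Without L − N replicate 1 they were −0.11 with NCG alone, −0.11 with HF alone and −0.0623 with both.

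ANGPT1 (gene 397009; chromosome 4, 29925203 to 30233434), the TEK agonist, had 3.50, 3.57 and 2.08 CPM in L − N, 3.15, 5.59 and 3.01 CPM in L + N, 1.40, 7.84 and 1.38 CPM in H − N, and 4.94, 5.11 and 3.99 CPM in H + N. H − N held both the highest and the lowest library. All H + N libraries were above all L − N libraries, as were 15.2% of all genes, but the log2 fold change of 0.61 (SE 0.598, adjusted p = 0.544, edgeR) was within the spread. H − N replicate 2 decided the NCG comparison: the log2 fold change was 0.38 (SE 0.422, adjusted p = 0.617, edgeR) with it, and 1.05 with an adjusted p of 0.0435 (edgeR) without it.

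ANGPT2 (gene 396730; chromosome 15, 37544177 to 37600925) had 48.1, 26.0 and 46.5 CPM in L − N, 29.0, 31.6 and 40.7 CPM in L + N, 25.2, 32.8 and 26.8 CPM in H − N, and 37.8, 36.0 and 38.4 CPM in H + N. The H + N libraries were close together and lay within the range of L − N. The level in H − N was below the control by a log2 fold change of −0.51 (SE 0.22, unadjusted p 0.0404, adjusted p = 0.182, edgeR), and NCG against no NCG gave 0.08 (95% interval −0.26 to 0.42). ANGPT2 lies on the strand opposite to MCPH1, which had 15.7 to 24.2 CPM, and the counting setting for strand was not given in the sources used here.

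ANGPT4 (gene 100515978; chromosome 17, 34345926 to 34394977), a further ligand of TEK, had 36.5, 26.2 and 55.6 CPM in L − N, 28.6, 11.4 and 27.6 CPM in L + N, 28.9, 29.2 and 4.69 CPM in H − N, and 11.7, 32.2 and 8.58 CPM in H + N. Low libraries occurred in each of the 3 groups other than L − N, and within the L − N range were 2 libraries of L + N, 2 of H − N and 1 of H + N. The difference of H + N from L − N was −1.17 (log2, SE 0.656, 95% interval −2.61 to 0.27, adjusted p = 0.275, edgeR), the widest interval of the members, and −1.97 without H + N replicate 2 (adjusted p 0.109, edgeR).

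Per gene length, ANGPT2 exceeded ANGPT1 by 2.38-fold to 12.7-fold, and ANGPT4 exceeded ANGPT1 by 1.67-fold to 22.0-fold over the 12 libraries. The geometric mean of the ANGPT2 to ANGPT1 ratio was 7.41-fold in L − N, 5.05-fold in L + N, 6.44-fold in H − N and 4.57-fold in H + N. The ratio differed by −0.53 (log2) with NCG (two-sided exact permutation test within diets, p = 0.25) and by −0.17 (log2) with HF (exact permutation p = 0.71). Without H − N replicate 2 the difference with NCG was −0.89 (exact permutation p = 0.045, not adjusted). Adjusted over the 8 comparisons made, p was 0.8 in all by the same exact permutation test, whose smallest possible p is 0.005 for these and 0.1 for a pair of groups. ANGPT4 was above ANGPT2 in all 3 L − N libraries and below it in 2 of 3 H + N libraries; this was not tested.

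**Figure D4:**
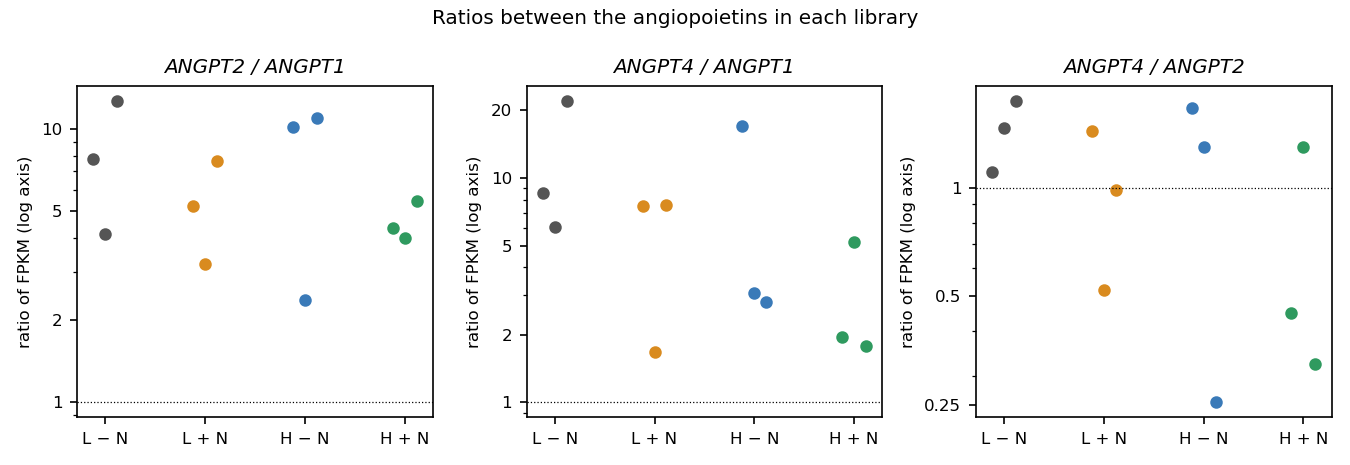
Ratios of FPKM between the angiopoietins in each library, by group, on log axes with a dotted line at equal levels. ANGPT2 exceeds ANGPT1 in all 12 libraries (2.38-fold to 12.7-fold), ANGPT4 does so too (1.67-fold to 22.0-fold), and ANGPT4 lies on both sides of ANGPT2.

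**Figure D5:**
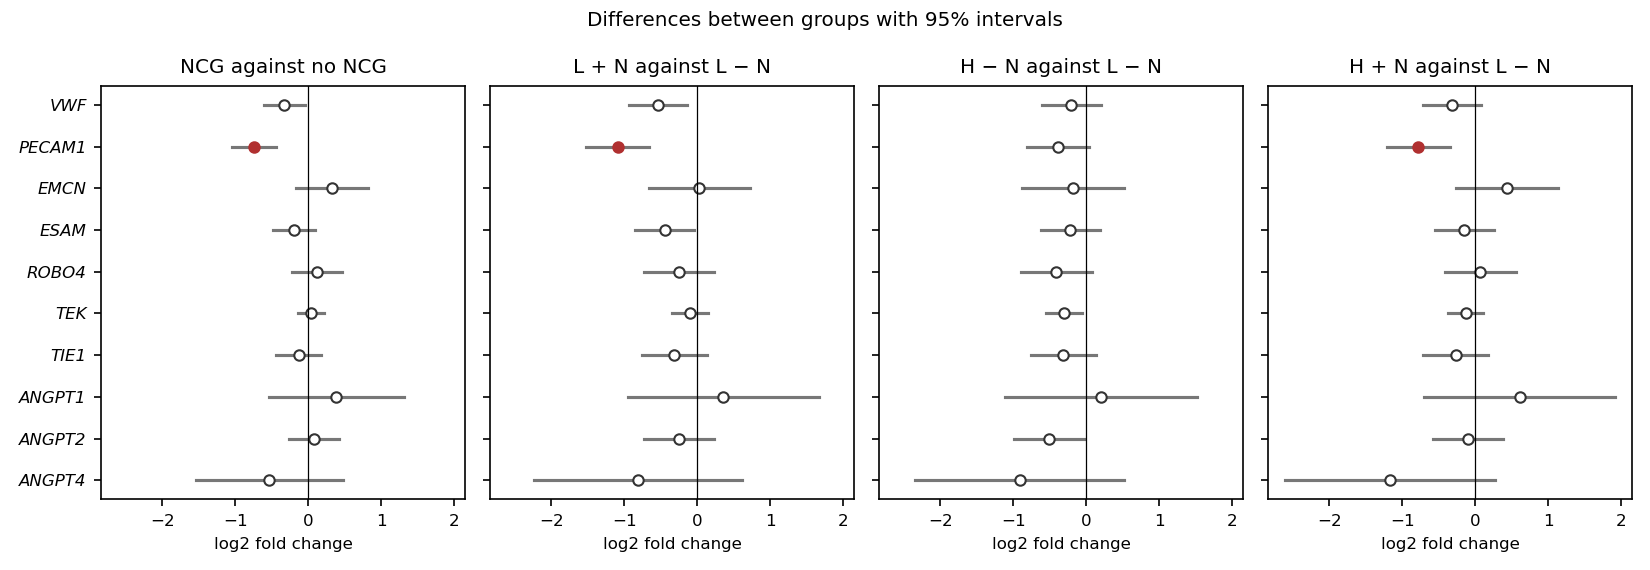
Log2 fold changes of the 10 genes with 95% intervals for NCG against no NCG and for each other group against L − N (edgeR). Filled points have an adjusted p below 0.05, which holds for PECAM1 with NCG (−0.74), in L + N (−1.09) and in H + N (−0.78).

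Over the members as a set, 8 of 10 were lower in L + N than in L − N (52.26% of all genes tested), 9 of 10 in H − N (46.52%) and 7 of 10 in H + N (48.35%). Their median log2 fold changes were −0.28, −0.31 and −0.14, against −0.02, 0.03 and 0.02 over all genes tested. These comparisons share the L − N libraries, and L − N replicate 1 held the highest level of 5 members (VWF, PECAM1, TIE1, ESAM and ANGPT2). All 10 interaction estimates were above 0 (median 0.53, against −0.01 over all genes, of which 7581 of 15351 were above 0), and 0 of them passed the adjusted p. Other lists also leaned above 0, with 27 of 34 other endothelial, 9 of 9 mural cell, 8 of 8 smooth muscle, 8 of 8 macrophage and 6 of 6 lymphatic genes. So did 3 of 3 erythroid, 6 of 8 lymphocyte and 3 of 4 platelet genes. The same held for 15 of 19 genes that act with the Tie receptors and 10 of 15 partners of ROBO4 or VWF. Stromal genes (3 of 8) and epithelial genes (1 of 7) did not. The plot of fold changes shows how often the intervals cross 0.

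Among the 34 other endothelial genes, NCG gave 25 lower and 9 higher (median log2 fold change −0.16), where 53.1% of all genes were lower (median −0.03). Of the 34, 3 passed the adjusted p, near the 7.27% of all genes, so the count is not particular to the list. PLVAP, which forms the diaphragms of endothelial caveolae and fenestrae, was lower over both diets pooled (−0.50, adjusted p = 0.0187, edgeR). It gave −0.62 on the LF diet (adjusted p = 0.0283, edgeR) and −0.38 on the HF diet (adjusted p = 0.548, edgeR). S1PR1, the sphingosine 1-phosphate receptor that seals junctions, was also lower over both diets pooled (−0.46, adjusted p = 0.0261, edgeR). It gave −0.90 on the LF diet and −0.02 on the HF diet (interaction unadjusted p 0.00164, adjusted p = 0.254, edgeR). CALCRL, the receptor for adrenomedullin, was higher over both diets pooled (0.51, adjusted p = 0.0484, edgeR) and was named after its value was seen. It gave 0.90 on the LF diet and 0.12 on the HF diet (interaction unadjusted p 0.0155, adjusted p = 0.305, edgeR).

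S1PR1 was also the 1 gene of the 34 in that list that passed over the 4 groups (adjusted p = 0.0252, edgeR), where 6.96% of all genes passed. It had 75.6 to 82.1 CPM in L − N and 36.6 to 54.9 CPM in the other groups, without overlap. Taken singly, L + N, H − N and H + N lay below L − N without overlap for 17.2%, 12.7% and 12.7% of all genes. CDH5, the cadherin of endothelial junctions, was 193 ± 20.3 CPM in L − N and 119 ± 13.3 CPM in L + N (SD, n = 3), and fell in that comparison (−0.69, adjusted p = 0.0349, edgeR). With NCG against no NCG, CDH5 gave −0.39, the transcription factor ERG −0.42 and the tight junction gene CLDN5 −0.71, and these missed the threshold with adjusted p of 0.0882, 0.0998 and 0.150 (edgeR). KDR, the main VEGF receptor, gave −0.13 (adjusted p 0.693, edgeR).

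Of 20 genes that act with or downstream of the Tie receptors, 19 were tested, and 2 passed the adjusted p with NCG (7.27% of all genes), 1 in each direction. FOXO1, the transcription factor that TEK signaling keeps out of the nucleus, was lower with NCG over both diets pooled (−0.29, adjusted p = 0.0337, edgeR). With NCG, FOXO1 gave −0.66 on the LF diet and 0.08 on the HF diet (interaction 0.74, unadjusted p 0.000287, adjusted p = 0.209, edgeR). It had 139 to 149 CPM in L − N against 90.5 to 92.6 CPM in L + N, 91.9 to 104 CPM in H − N and 90.5 to 109.5 CPM in H + N. Such lower values without overlap with L − N were found for 17.2%, 12.7% and 12.7% of all genes in these groups. FOXO1 was lower than L − N in each of them (−0.66, −0.57 and −0.49, adjusted p of 0.00818, 0.0194 and 0.0232, edgeR). PIK3CA, a catalytic subunit of PI3 kinase, was higher with NCG over both diets pooled (0.73, adjusted p = 0.0344, edgeR) and was named after its value was seen.

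PIK3R1, a regulatory subunit of PI3 kinase, rose in both HF groups against the control (0.88 and 0.89, adjusted p of 0.0323 and 0.0262, edgeR). PTPRB, the phosphatase that restrains TEK, gave −0.14 with NCG (adjusted p 0.431, edgeR), and NOS3, the endothelial nitric oxide synthase, gave −0.23 (adjusted p 0.570, edgeR). All of these genes are also expressed outside the endothelium to different degrees, FOXO1 and the PI3 kinase subunits widely.

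Among 15 genes that bind ROBO4 or handle VWF and its granules, 2 passed the adjusted p with NCG (7.27% of all genes), both lower. They were RAB3D, a small GTPase of secretory granules (−0.36, adjusted p = 0.0239, edgeR), and VAMP3, a vesicle fusion protein (−0.31, adjusted p = 0.0383, edgeR). With NCG on the LF and HF diets, RAB3D gave −0.40 and −0.32 (adjusted p of 0.0516 and 0.4875, edgeR). VAMP3 gave −0.54 and −0.08 (adjusted p of 0.0165 and 0.8745, edgeR). The interaction of VAMP3 had an unadjusted p of 0.0131 (adjusted p = 0.296, edgeR). RAB3D also passed over the 4 groups (adjusted p = 0.0461, edgeR).

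Around the endothelium, mural cell genes were used to mark pericytes, and whether the ANGPT1 reads came from such cells was not tested. The summed level of these genes was 1469 to 1776 CPM in L − N, 1008 to 1206 CPM in L + N, 999.8 to 1254 CPM in H − N and 1080 to 1514 CPM in H + N. RGS5, a regulator of G protein signaling in pericytes, fell against the control with NCG alone (−0.66, adjusted p = 0.0284), with HF alone (−1.52, adjusted p = 0.00796) and with both (−0.90, adjusted p = 0.0168, edgeR). CSPG4 fell in L + N and H − N (−0.87 and −1.04, adjusted p of 0.0333 and 0.0299, edgeR). The smooth muscle genes ACTA2 and TAGLN fell in L + N against L − N (−1.76 and −1.50, adjusted p of 0.0329 and 0.0203, edgeR), where L − N replicate 1 had the highest summed level. They were the 2 genes called there among the 8 of that list (3.99% of all genes).

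In the lymphatic list 1 of 6 genes was called in H + N against L − N (3.58% of all genes). It was PDPN (−1.87, adjusted p = 0.0296, edgeR), which stromal cells also express. With NCG against no NCG, 0 genes passed the adjusted p in the lists for lymphatic endothelium, mural cells, smooth muscle, stroma, epithelium, platelets, macrophages, lymphocytes and red blood cells, with 0, 1, 5, 0, 1, 0, 1, 0 and 1 genes at an unadjusted p below 0.05 (edgeR). Over the 4 groups the smallest adjusted p were 0.0818 for THY1 and 0.145 for COL3A1 among stromal genes, 0.0362 for CDH1 and 0.164 for KRT19 among epithelial genes, 0.711 for GP1BA and 0.746 for GP9 among platelet genes, 0.229 for NKG7 and 0.689 for CD3D among lymphocyte genes, and 0.0465 for AHSP and 0.0642 for HBB among erythroid genes (edgeR).

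Genes with the most similar profile over the 12 libraries were found by Pearson correlation of log2 CPM among 14255 genes, as a description only, since the libraries share groups and depth. The mean of the 5 surface or granule genes and both receptors was followed most closely by WTIP (r = 0.942), GJA5 (0.912) and MRVI1 (0.908). VWF was followed by STX6 (0.90), NXT1 (0.889) and FOXL1 (0.887), and TEK by ZDHHC2 (0.919), PPFIA4 (0.914) and NOX4 (0.911). The nearest profiles to ANGPT1 were those of PAK3 (0.946), MFSD9 (0.932) and FAT3 (0.879), and to ANGPT2 those of INHBA (0.848), CNST (0.846) and GPR161 (0.842).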

How the data were processed

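Per the labels and the study's methods, total RNA was extracted from endometrium with Trizol, and strand-specific poly(A) libraries were sequenced in paired-end mode. The authors deposited counts per gene and FPKM (fragments scaled to gene length and library size) for 20674 genes on Sscrofa11.1. The submitters' processing notes name fastp 0.22.0, HISAT2 2.1.0 and HTSeq 0.9.1. The strand setting of the counting was not given in the sources used here. The deposited FPKM were recomputed from the counts and the gene lengths to within 1.9e-05 percent.

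Counts were scaled by TMM, filtered with filterByExpr (15351 genes kept) and fitted with edgeR 4.0.16 (R 4.3.3, limma 3.58.1) by the quasi-likelihood test with 1 mean per group over the 12 libraries. P-values were adjusted by Benjamini-Hochberg over all tested genes. The study used DESeq2, and DESeq2 1.42.0 was an alternative here. The other alternatives were RLE and upper quartile scaling, no filter, the replicate number as a block, no fold threshold, and leaving out each library. CPM are TMM-scaled, and log2 CPM use a prior count of 2. The edgeR step was tested on simulated counts. FPKM served for levels between genes, for ratios and for a second look at TEK between groups.

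The members and lists were chosen with earlier results of these data known. Named are all members, 7 set genes (CDH5, KDR, CLDN5, ERG, PTPRB, FOXO1 and NOS3), every listed gene called in H + N against L − N, HF against LF or NCG against no NCG and, for a list without such a call, the 2 genes with the smallest adjusted p over the 4 groups. The 3 most similar genes per profile are named too. A few genes outside the rule are named where a count turns on them. Groups came from the sample titles. COX4I2, KRT7, PF4 and HBA1 were not analysed here.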

Additional observations from a re-analysis of the deposited data

How the results depend on the processing

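Every member fold change given above and every count of members called was recomputed under up to 21 alternatives. With RLE scaling and with DESeq2 on 12 libraries, VWF in HF against LF changed sign to −0.0038. The numbers in the sample titles did not pair the libraries: same-numbered libraries of different groups had correlations of −0.32 to 0.28 in their deviations from the group means, others −0.32 to 0.28, and 3 of 12 libraries correlated best with their own number. With the replicate number as a block, the 4 groups called 0 members (PECAM1 adjusted p 0.0567), PECAM1 in H + N against L − N was −0.78 with an adjusted p of 0.0626, and ANGPT1 in H − N against L − N turned to −0.094. With no fold threshold, NCG and H + N against L − N each called 1 member. DESeq2 also gave PECAM1 in H − N against L + N as 0.69, with adjusted p of 0.0245 on 12 libraries and 0.000115 on the 2 groups alone (0.70, adjusted p 0.134, in edgeR). On 12 libraries it put VWF in L + N against L − N (−0.55, adjusted p 0.0319) and TEK in H − N against L − N (−0.32, adjusted p 0.0461) past the adjusted p. It called 3365 genes over the 4 groups, where edgeR called 1068, and 988, 913 and 883 in H + N, H − N and L + N against L − N, where edgeR called 549, 446 and 613. The block gave 477 over the 4 groups and 254 in H − N against L − N.

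Leaving out 1 library at a time gave 0 to 1 members called over the 4 groups (0 without L − N replicate 3, any L + N library or H + N replicate 1, with PECAM1 adjusted p of 0.0548 to 0.114), 0 to 1 with NCG, 0 to 1 in H + N against L − N (1 without H + N replicate 2) and 0 to 1 in L + N against L − N. Without L − N replicate 3, 4 genes in all passed over the 4 groups. The log2 fold change of PECAM1 ranged from −1.03 to −0.60 in H + N against L − N, where its adjusted p was above 0.05 without any of 8 libraries and reached 0.115, from −1.19 to −0.97 in L + N and from −0.18 to 0.0476 with HF. VWF ranged from −0.0795 to 0.0886 with HF and from −0.71 to −0.37 in L + N. ANGPT1 ranged from −1.13 to 0.59 in H − N, −0.44 to 0.42 with HF, 0.19 to 1.05 with NCG and −0.34 to 1.39 for the interaction. ANGPT2 ranged from −0.34 to 0.0471 in H + N and −0.0405 to 0.15 with NCG, and ANGPT4 from −0.25 to 0.88 for the interaction. EMCN ranged from −0.52 to 0.0408 in H − N and −0.0811 to 0.21 in L + N, ESAM from −0.28 to 0.056 in H + N, and ROBO4 from −0.0659 to 0.25 in H + N. The ANGPT2 to ANGPT1 ratio (log2) ranged from −0.39 to 0.19 with HF and from −0.89 to −0.33 with NCG. ANGPT1, at 20 to 113 counts, is the member that depth limits most.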
